A study of Mus musculus with 8 samples.

Results

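The genes described here encode the enzymes that break down amino acids in the liver and turn the nitrogen they release into urea. A list of 52 genes was fixed by name, and each gene was represented by the array probe set (a group of probes reported as 1 signal) that names this gene alone, taking the one with the highest mean signal where there were several. In all 47 of the 52 genes had such a probe set, among 19938 genes on the array that could be tested in this way. Ass1 and Ahcy are read only by probe sets that also name a second gene (Gm5424 and Gm4737), and Gls2, Sds and Sdsl were matched to no probe set here; these 5 genes are not analysed. Mut is named Mmut in current annotation. All 47 lay above the median signal of the genes tested, which served as a filter on dim genes in an alternative.

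The samples were 8 livers of C57BL6 mice (BL6J in the sample descriptions), each on its own Affymetrix Mouse Gene 1.0 ST array. In 4 of them, the hydrogen water group, the mice had drunk water with dissolved molecular hydrogen for 4 weeks from an age of 7 weeks. The other 4 came from control mice, whose drinking water and age the labels do not give separately: the only text with an age is a treatment text shared by all 8 samples. Every liver of both groups was taken after 17 h of fasting, so no fed liver is compared here. The sex of the mice is not given in the labels. Whether each array is a separate animal is not stated outright, and if it is not, the spread behind each p-value may be technical. Signals are on a log2 scale, on which a difference of 1 is a doubling, and every difference below is hydrogen water minus control.

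Fasting is a state in which muscle protein supplies the liver with amino acids. Aminotransferases pass their nitrogen to glutamate and aspartate, glutamate dehydrogenase releases part of it as ammonia, and the urea cycle binds that ammonia, with the nitrogen of aspartate, into urea. The carbon skeletons are taken apart by separate routes for the aromatic, branched-chain, sulfur-containing and other amino acids, and end in intermediates of glucose and ketone body production. Several of these genes, among them Tat, Cps1 and Tdo2, are textbook targets of glucagon or glucocorticoids. Many of the enzymes are found mainly in the hepatocytes around the portal vein, whereas ornithine aminotransferase and glutamine synthetase are found around the central vein.

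Of the 47 genes, 0 passed the test between hydrogen water and control. Limma with Benjamini-Hochberg adjustment over all 19938 genes called 0 of them (0%), and the lowest adjusted p among the 47 was 0.687. An unadjusted p under 0.05 was reached by 3 of the 47, or 6.38%: Got1 and Kmo on the higher side and Otc on the lower side. Over all genes 1429, or 7.17%, reached that p, so the share among the enzymes was no larger than the background. By direction, 3.60% of all genes stood on the higher side at that p and 3.57% on the lower side. The groups did not overlap in 2 of the 47 genes, Kmo and Otc (4.26%), against 3.76% of all genes. The intervals show which changes the arrays could have missed. For 35 of the 47 genes the 95% interval lay within 0.5 of no difference on the log2 scale, a change of 1.41-fold, and for all 47 it lay within 1, a doubling. Over all genes the interval lay within 0.5 for 78.7% and within 1 for 98.9%.

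**Figure D1:**
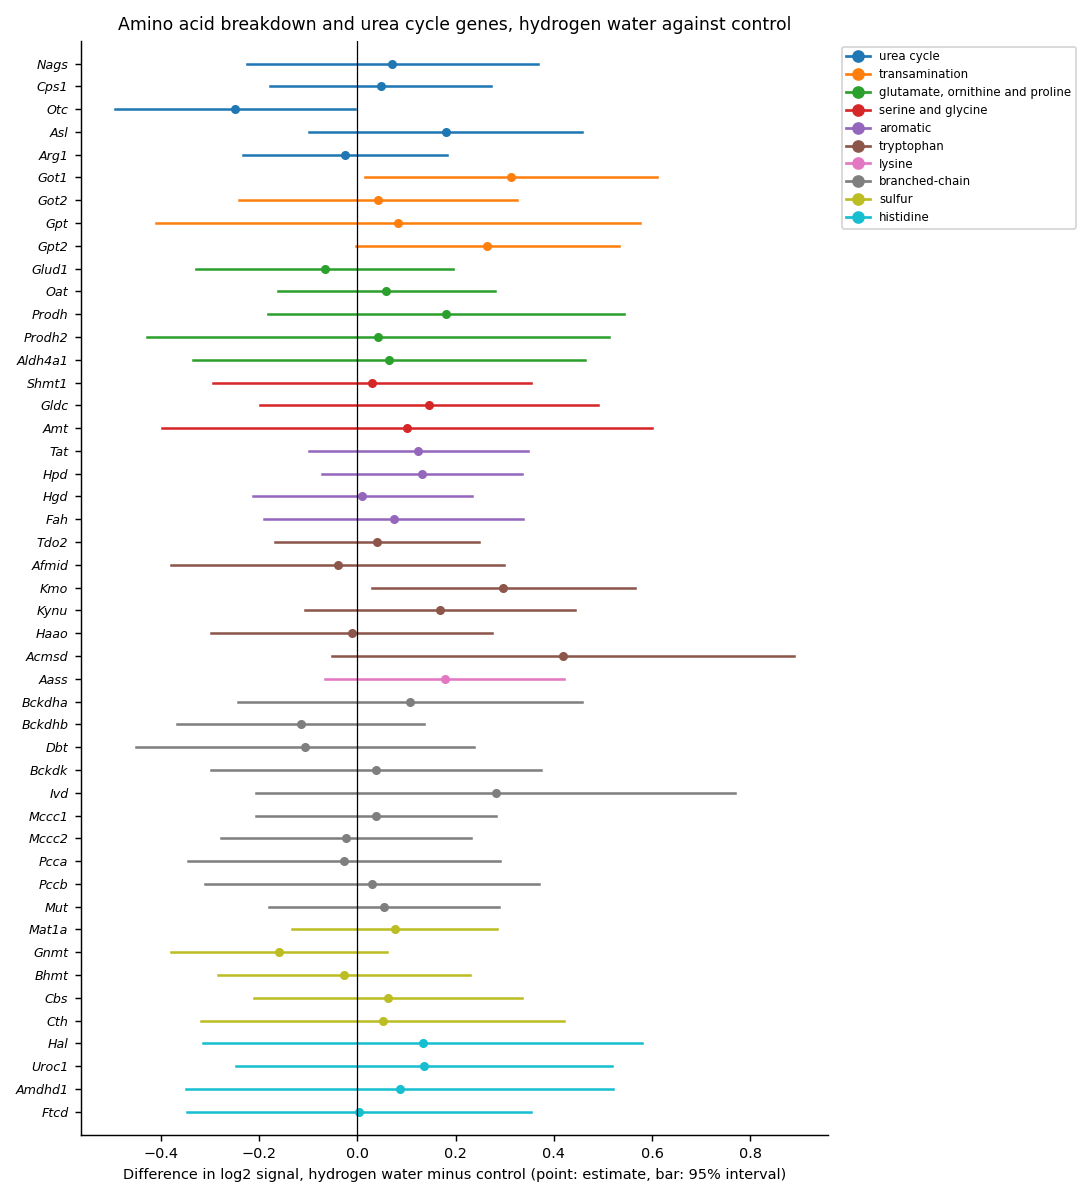
Difference in log2 signal between hydrogen water and control (x axis) for each of the 47 genes (y axis), with the limma estimate as a point, its 95% interval as a bar and the pathway as colour; 4 arrays a group. Most points sit a little to the right of 0 and nearly all intervals include 0; those of Got1, Kmo and Otc do not.

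More genes pointed to the higher side than to the lower side, and that count changed when single arrays were left out. With hydrogen water 36 of 47 genes had a difference above 0 (76.6%), against 48.7% of all genes, with a median difference of 0.06 against −0.00 over all genes. Control 3 was the lowest of the 8 arrays in 24 of the 47 genes (51.1%), whereas over all genes it was the lowest in 18.4%. Hydrogen water 4 was the highest array in 23 of the 47 (48.9%), against 16.6% over all genes. Both arrays were extreme in both directions over all genes. Control 3 was the highest array in 19.8% of all genes, against 6.38% of the 47. Hydrogen water 4 was the lowest in 15.8%, against 4.26%. In the weighting of arrays they had the lowest weights of the 8, 0.424 for control 3 and 0.73 for hydrogen water 4. Without control 3 the count above 0 was 23 of 47 and the median difference −0.018. Without hydrogen water 4 they were 25 of 47 and 0.00. Without both of these arrays, an alternative chosen after the data were seen, it was 14 of 47 with a median of −0.07. Both were picked from these same values, so a lower count without them was foreseeable. Other arrays stood on the opposite side. Control 1 was the highest array in 13 of the 47 (27.7%), against 11.1% of all genes. Hydrogen water 2 was the lowest in 12 (25.5%), against 11.9%. With each array left out in turn, the count above 0 ran from 23 to 42.

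The low signals of control 3 were uneven among the enzymes. It stood below each of the other 3 controls in 34 of the 47 genes, and 0.5 or more below their mean in 12, whereas 6.16% of all genes lay that far below. The gap was −0.95 for Prodh2, −0.94 for Ivd, −0.93 for Amt, −0.89 for Gpt and −0.77 for Cth, enzymes of hydroxyproline, leucine, glycine, alanine and cysteine metabolism. It was −0.04 for Cps1, 0.03 for Arg1 and −0.03 for Tat, and on the other side 0.79 for Acmsd, 0.44 for Dbt and 0.37 for Otc. Control 3 was also the lowest array, by the median, for 4 markers of periportal hepatocytes that are not among the 47 genes (Cyp2f2, Pck1, Cdh1 and Hsd17b13). Their median around each gene's mean was −0.36 there, while that of 9 pericentral markers outside the list was 0.16. The pericentral markers were not uniform on control 3. Glul had its lowest signal there, 11.86 against a mean of 12.35 over the 8 arrays, and Tbx3 stood at 8.27 against 8.58. Glul was read by 2 probe sets, and the origin of the signal used was not tested. Oat, a pericentral gene of the list, was also lowest there, at 13.23 against 13.38. For 7 general hepatocyte markers, Alb and Apoa1 among them, the median around each gene's mean was −0.01 on control 3. Their mean signal was 13.72 to 13.81 over all arrays, and Alb is the main protein product of hepatocytes. The levels of these markers ran from 12.58 to 14.43, the highest level of all genes tested. Their median pooled within-group SD was 0.06, against 0.18 over all genes. Whether signals this high can show a change in cell content was not tested. The part of liver zonation or of RNA quality in these values was not tested, and the array values alone do not separate fewer cells of a type from less RNA per cell.

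**Figure D2:**
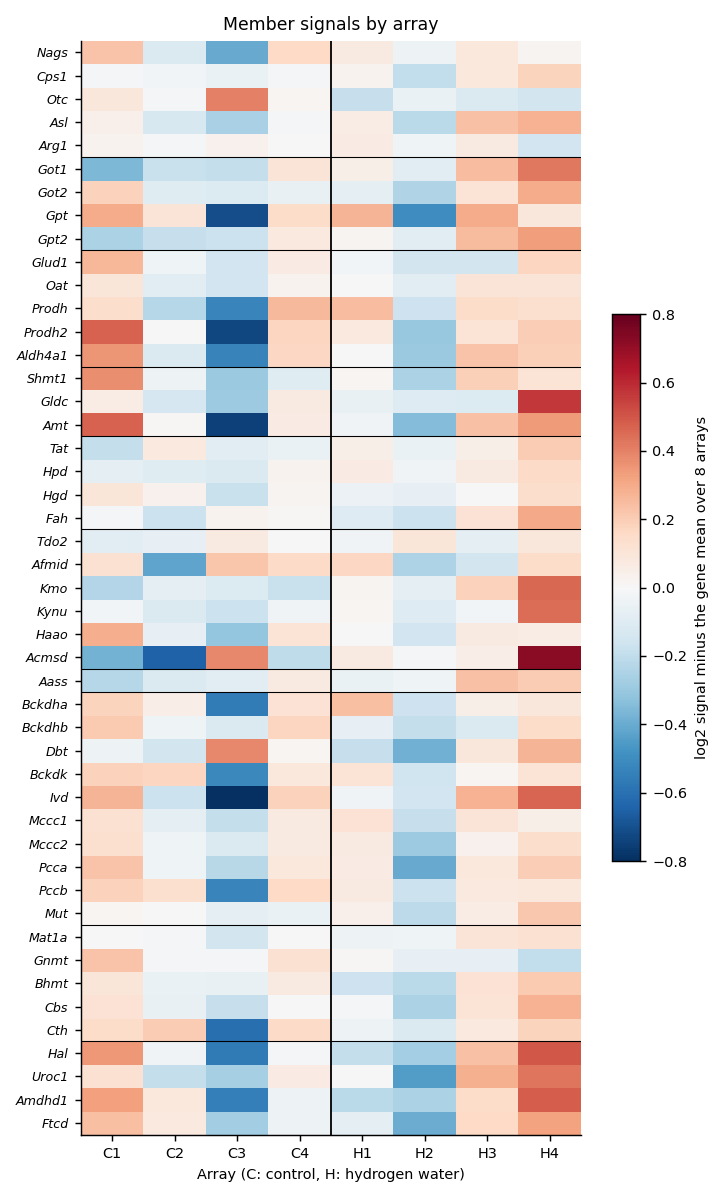
Log2 signal minus the gene's mean over the 8 arrays (colour) for each gene (rows, with lines between pathways) on each array (columns; C for control, H for hydrogen water). Control 3 forms a mostly blue column, clearly interrupted at Otc, Afmid, Acmsd and Dbt, and hydrogen water 4 a mostly red one.

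The urea cycle turns ammonia into urea in 5 steps, the first of them switched on by the product of a further enzyme. Nags makes N-acetylglutamate, the activator that carbamoyl phosphate synthetase needs. Its log2 signals were 9.80, 9.45, 9.17 and 9.73 on controls 1 to 4 and 9.65, 9.53, 9.66 and 9.60 on hydrogen water 1 to 4. The hydrogen water arrays all lay inside the range of the controls, and their difference was 0.07 (SE 0.14). Cps1 (transcript cluster 10347117), the mitochondrial enzyme that fixes ammonia as carbamoyl phosphate, stood at 13.93, 13.92, 13.89 and 13.92 on controls and at 13.97, 13.74, 14.02 and 14.11 with hydrogen water. The controls were nearly identical and the hydrogen water arrays lay on both sides of them, with a difference of 0.05 (95% interval −0.18 to 0.27).

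Otc (transcript cluster 10598612), the X-linked enzyme that joins carbamoyl phosphate to ornithine, was the gene of the list farthest to the lower side. Its signals were 12.00, 11.89, 12.31 and 11.93 on controls and 11.73, 11.85, 11.79 and 11.76 with hydrogen water. Every hydrogen water array lay below every control, a separation that 2.01% of all genes showed in this direction. The means were 12.03 ± 0.19 (SD, n = 4) in controls and 11.78 ± 0.05 (SD, n = 4) with hydrogen water, a difference of −0.25 (SE 0.11), with a limma adjusted p of 0.687. Control 3 carried much of it: without this array the difference was −0.16, with a limma unadjusted p of 0.129 against 0.0463 with all arrays.

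Asl, the lyase that splits argininosuccinate into arginine and fumarate, stood at 13.15, 12.98, 12.85 and 13.10 on controls and at 13.17, 12.89, 13.34 and 13.39 with hydrogen water. The groups overlapped, with hydrogen water 2 below 3 of the 4 controls, and the difference was 0.18 (SE 0.13). Arg1, the arginase that releases urea, had one of the tightest signals of the list: 13.22, 13.19, 13.23 and 13.19 on controls and 13.26, 13.16, 13.27 and 13.04 with hydrogen water. Its pooled within-group SD of 0.08 lay at the 3.57th percentile of all genes, and its 95% interval ran from −0.23 to 0.18. Thus 3 of the 5 measured cycle genes had a difference above 0 and 0 passed the test, with a median difference of 0.05 for the cycle.

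Around the cycle, all 5 further genes listed, transporters and the arginase Arg2, had a difference above 0, and 0 passed the test. Slc25a15, which exchanges ornithine and citrulline, stood at 12.01, 12.01, 12.07 and 12.01 on controls and at 12.33, 12.14, 12.32 and 12.52 with hydrogen water. The groups did not overlap, as in 1.76% of all genes in this direction, and the difference was 0.30 (SE 0.10; limma adjusted p = 0.640). The aspartate and glutamate carrier Slc25a13 differed by 0.12 (SE 0.12) and the arginine transporter Slc7a2 by 0.19 (SE 0.11). The glutamate carrier Slc25a22 was at 10.71, 11.04, 11.13 and 11.48 on controls and at 11.78, 11.60, 11.69 and 12.06 with hydrogen water, again without overlap. Its difference was 0.70 (SE 0.16; limma adjusted p = 0.617).

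Aminotransferases collect amino groups on glutamate and aspartate. Got1 (transcript cluster 10467842), the cytosolic aspartate aminotransferase, had signals of 12.93, 13.12, 13.10 and 13.40 on controls and of 13.34, 13.20, 13.54 and 13.71 with hydrogen water. The groups overlapped, because control 4 was above hydrogen water 1 and 2. The difference was 0.31 (SE 0.14), a change of 1.24-fold, with a limma adjusted p of 0.687. Gpt2, the mitochondrial alanine aminotransferase, showed the same order of arrays in part: 12.12, 12.19, 12.20 and 12.46 on controls and 12.40, 12.29, 12.63 and 12.71 with hydrogen water. Control 4 was again the highest control and hydrogen water 4 the highest array, and the difference was 0.26 (SE 0.12; limma adjusted p = 0.697). Without hydrogen water 4 the differences of Got1 and Gpt2 were 0.23 and 0.20.

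Their partner enzymes in the other compartment shared this pattern of values only in part. Gpt, the cytosolic alanine aminotransferase, was one of the most variable genes of the list, at 10.32, 10.12, 9.31 and 10.17 on controls and 10.29, 9.52, 10.32 and 10.11 with hydrogen water. Control 3 and hydrogen water 2 were more than 0.5 below every other array, the pooled SD of 0.41 lay at the 97.4th percentile of all genes, and the difference was 0.08 (SE 0.23). Got2, the mitochondrial aspartate aminotransferase, differed by 0.04 (SE 0.13). Its hydrogen water arrays stood in the same order as those of Got1 and Gpt2, with hydrogen water 4 the highest array. Its highest control was control 1, in place of control 4. Whether the differences of Got1 and Got2, or of Gpt2 and Gpt, differ from each other was not tested. All 4 aminotransferases had a difference above 0, with a median of 0.17, and 0 passed.

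**Figure D3:**
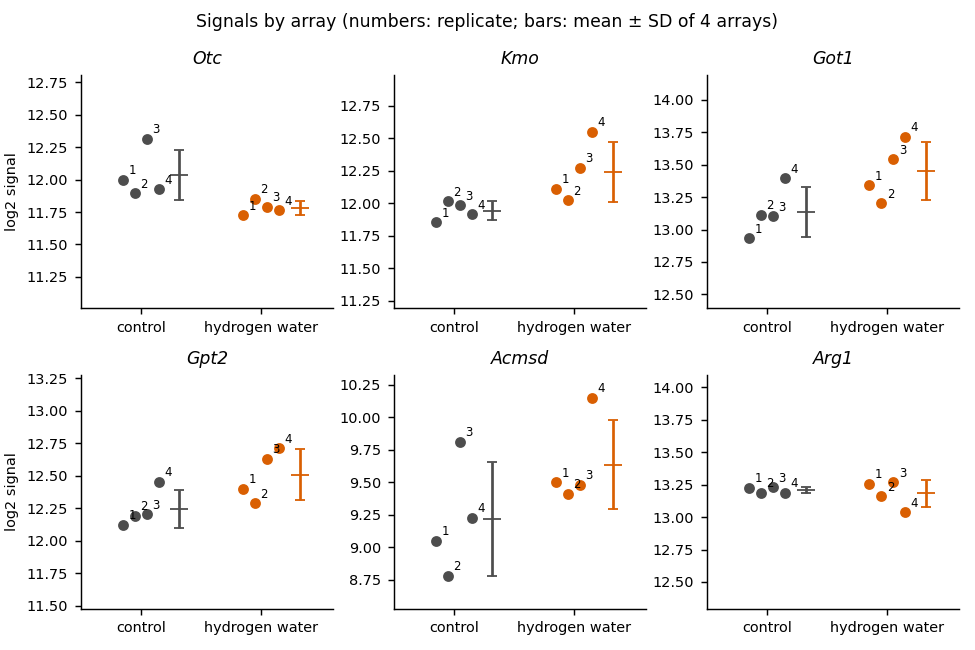
Log2 signal (y axis) by group for Otc, Kmo, Got1, Gpt2, Acmsd and Arg1, with replicate numbers at the points and the mean ± SD of 4 arrays beside them; each panel spans the same height. Otc and Kmo show no overlap between the groups, Got1, Gpt2 and Acmsd do, and Arg1 is nearly flat.

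The promoters of the 3 genes with an unadjusted p under 0.05 are shown because these are the genes of the list with the smallest p. Each is the 250 bases before the annotated transcription start, 5′ to 3′, from the RefSeq sequence of GRCm38.p6, with CCAAT boxes in capitals.
Otc, chrX:10252055-10252304, plus strand: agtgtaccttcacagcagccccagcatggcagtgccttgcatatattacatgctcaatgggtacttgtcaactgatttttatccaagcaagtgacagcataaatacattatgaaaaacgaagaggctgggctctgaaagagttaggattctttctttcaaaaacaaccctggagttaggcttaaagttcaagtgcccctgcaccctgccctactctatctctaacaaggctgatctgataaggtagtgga
Kmo, chr1:175631943-175632192, plus strand: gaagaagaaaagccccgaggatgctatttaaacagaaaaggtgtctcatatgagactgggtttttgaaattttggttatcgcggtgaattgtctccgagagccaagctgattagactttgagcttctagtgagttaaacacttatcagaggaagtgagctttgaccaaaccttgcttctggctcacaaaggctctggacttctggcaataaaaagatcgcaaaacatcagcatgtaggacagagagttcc
Got1, chr19:43524606-43524855, minus strand: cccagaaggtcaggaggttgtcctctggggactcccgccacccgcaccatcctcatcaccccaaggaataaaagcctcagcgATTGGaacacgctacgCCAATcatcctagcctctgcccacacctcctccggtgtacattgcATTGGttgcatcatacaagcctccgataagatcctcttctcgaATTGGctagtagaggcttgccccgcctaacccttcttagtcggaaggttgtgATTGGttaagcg

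The search covered both strands for the CCAAT box (CCAAT or ATTGG), the core of the cAMP response element (TGACG or CGTCA), through which glucagon signalling acts on transcription, and the core site of the glucocorticoid receptor (AGAACA or TGTTCT). The Got1 promoter held 5 CCAAT boxes, and those of Otc and Kmo held 0; the other motifs were not found in these windows. Of the 52 listed genes, 40 had a promoter in the table. The CCAAT box was present in 23 of the 40 (57.5%), against 35.6% of 15015 promoters of protein-coding genes. The cAMP response element core site was present in 4 of 40 (10%), against 21.7%, and the glucocorticoid receptor core site in 4 of 40 (10%), against 13.2%. These are matches of letters in a short window and say nothing of which factors bind there.

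Glutamate, ornithine and proline are linked through a shared semialdehyde. Prodh, the proline dehydrogenase, had signals of 10.57, 10.21, 9.90 and 10.69 on controls and 10.68, 10.27, 10.58 and 10.56 with hydrogen water. Hydrogen water arrays lay within the control range, and the difference was 0.18 (SE 0.17). Prodh2, which oxidises hydroxyproline, spread more widely in controls, at 10.55, 10.08, 9.35 and 10.25, than with hydrogen water, at 10.16, 9.78, 10.19 and 10.27. Control 1 was its highest and control 3 its lowest array, and its difference was 0.04 (SE 0.22). Oat, the pericentral ornithine aminotransferase, was tight at 13.48, 13.29, 13.23 and 13.41 against 13.38, 13.30, 13.49 and 13.48, with a difference of 0.06 (SE 0.10). Glud1, the glutamate dehydrogenase, differed by −0.07 (SE 0.12) and Aldh4a1, which oxidises the semialdehyde to glutamate, by 0.06 (SE 0.18). Control 3 was the lowest array in all 5 genes listed under this heading, Prodh2 included. Of the 5, 4 had a difference above 0 and 0 passed. Without control 3 the differences of Aldh4a1 and Prodh2 were −0.10 and −0.19, and the median of the 5 genes was −0.10 in place of 0.06.

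Among genes of serine and glycine, the glycine cleavage system frees ammonia and a one-carbon unit. Gldc, its decarboxylase, stood at 10.99, 10.80, 10.64 and 11.01 on controls and at 10.88, 10.83, 10.82 and 11.50 with hydrogen water. Hydrogen water 4 alone lay above all controls, and the difference was 0.15 (SE 0.16). Amt, the aminomethyltransferase of the same system, had the largest pooled SD of the 47 genes (0.42), at 9.97, 9.51, 8.75 and 9.56 on controls and 9.47, 9.15, 9.73 and 9.84 with hydrogen water. Its difference was 0.10 (SE 0.23). Shmt1, which interconverts serine and glycine in the cytosol, differed by 0.03 (SE 0.15). All 3 had a difference above 0, with control 3 as their lowest array, and 0 passed. Without control 3 the differences of Amt and Shmt1 were −0.13 and −0.06, and the median of the 3 genes was −0.06 in place of 0.10.

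Phenylalanine and tyrosine are degraded through homogentisate. Tat, the tyrosine aminotransferase, is a classical marker of hormone action in fasting and had signals of 13.92, 14.18, 14.02 and 14.05 on controls and of 14.16, 14.05, 14.16 and 14.31 with hydrogen water. The groups overlapped in that control 2 exceeded 3 hydrogen water arrays, and the difference was 0.12 (95% interval −0.10 to 0.35). Hpd, which makes homogentisate, had the smallest pooled SD of the list (0.07), at 13.46, 13.43, 13.42 and 13.56 against 13.60, 13.50, 13.61 and 13.68. Only control 4 lay above a hydrogen water array, and the difference was 0.13 (SE 0.09; limma adjusted p = 0.816). Fah, which performs the last step, stood at 12.73, 12.58, 12.78 and 12.76 against 12.65, 12.58, 12.87 and 13.06, a difference of 0.07 (SE 0.12). Hgd, the homogentisate oxygenase, differed by 0.01 (SE 0.10). All 4 had a difference above 0 and 0 passed, and hydrogen water 4 was the highest array in all 4. Gstz1, the isomerase between Hgd and Fah, which was not on the list of 52, went the other way by −0.21 (SE 0.10; limma adjusted p = 0.703), with every hydrogen water array below every control. Qdpr and Pcbd1, which regenerate the cofactor of phenylalanine hydroxylation, differed by −0.12 (SE 0.10) and −0.17 (SE 0.12).

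Tryptophan is opened by Tdo2 and runs through kynurenine, either to complete breakdown or to NAD. Kmo (transcript cluster 10352000), the kynurenine 3-monooxygenase of the outer mitochondrial membrane, had signals of 11.85, 12.02, 11.98 and 11.91 on controls and 12.11, 12.02, 12.27 and 12.55 with hydrogen water. Every hydrogen water array lay above every control, although hydrogen water 2 and control 2 nearly coincided; 1.76% of all genes were separated in this direction. The difference was 0.30 (SE 0.12), a change of 1.23-fold, with a limma adjusted p of 0.687. Without hydrogen water 4 it was 0.19, with a limma unadjusted p of 0.102 against 0.0322 with all arrays.

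Acmsd, which diverts the pathway from NAD synthesis to complete oxidation, had the largest difference of the list and one of its widest spreads. Its signals were 9.05, 8.78, 9.81 and 9.23 on controls and 9.50, 9.41, 9.48 and 10.15 with hydrogen water. Control 3 was the second highest array, in contrast to most of the list, and hydrogen water 4 the highest. The difference was 0.42 (95% interval −0.05 to 0.89; limma adjusted p = 0.731), and it was 0.62 without control 3 and 0.25 without hydrogen water 4. Tdo2, the oxygenase that opens the ring, was nearly constant, with a difference of 0.04 (SE 0.10). Kynu, the kynureninase, differed by 0.17 (SE 0.13), Haao, which makes the precursor of quinolinate, by −0.01 (SE 0.13), and the formamidase Afmid by −0.04 (SE 0.16). In all 4 of the 6 had a difference above 0, with a median of 0.10, and 0 passed.

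Kmo is expressed in macrophages as well as in hepatocytes. Markers of other liver cells were therefore read too, and 0 of them passed the adjusted threshold. Markers of a cell type share the same 8 arrays, so the counts below are not independent observations. All 10 measured markers of Kupffer cells, the liver's macrophages, had a difference above 0, with a median of 0.41. Of these, 4 had an unadjusted limma p under 0.05, against 7.17% of all genes. Their mean log2 signal ranged from 6.31 to 6.91 over the controls and from 6.63 to 7.39 with hydrogen water. Their median around each gene's mean was −0.28, −0.29, 0.00 and −0.47 on controls 1 to 4. It was −0.15, 0.15, 0.14 and 0.60 on hydrogen water 1 to 4, so the groups overlapped. Hydrogen water 4 was the highest array for Kmo, Kynu and Acmsd, and likewise for 23 of the 47 genes. Among these were all 4 aromatic and all 4 histidine genes. All 8 markers of sinusoidal endothelial cells had a difference above 0, with a median of 0.33, and 3 had an unadjusted limma p under 0.05. Their mean signals were 7.69 to 8.23 in controls and 7.98 to 8.56 with hydrogen water. The median of these endothelial markers around each gene's mean was 0.09, −0.45, −0.20 and −0.04 on controls 1 to 4. It was −0.26, 0.45, 0.27 and 0.12 on hydrogen water 1 to 4, again with overlap. Markers of stellate cells and cholangiocytes lay mostly on the other side: 5 of 7 stellate markers had a difference below 0, with a median of −0.10, and 4 of 5 cholangiocyte markers, with a median of −0.15. At the same unadjusted p there was 1 stellate marker, on the lower side, and 0 cholangiocyte markers. The part of these cells in the values of Kmo was not tested.

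Lysine enters breakdown through Aass, the mitochondrial aminoadipic semialdehyde synthase. Its signals were 12.69, 12.80, 12.83 and 12.99 on controls and 12.87, 12.88, 13.15 and 13.12 with hydrogen water. Control 4 exceeded hydrogen water 1 and 2, and the difference was 0.18 (SE 0.11; limma adjusted p = 0.787). Of 7 further genes of tryptophan and lysine breakdown, 6 had a difference above 0 and 0 passed.

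Branched-chain amino acids are committed to oxidation by the branched-chain keto acid dehydrogenase, which Bckdk inactivates by phosphorylation. The subunits did not lean to one side: Bckdha differed by 0.11 (SE 0.16), Bckdhb by −0.12 (SE 0.12) and Dbt, the core, by −0.11 (SE 0.16), beside 0.04 (SE 0.15) for Bckdk. Bckdhb stood at 10.94, 10.70, 10.62 and 10.90 on controls and 10.67, 10.54, 10.62 and 10.88 with hydrogen water. The groups overlapped in part, with hydrogen water 2 and 3 below every control, hydrogen water 3 only just. Ivd, the isovaleryl-CoA dehydrogenase of leucine breakdown, was at 11.24, 10.79, 10.12 and 11.14 against 10.94, 10.81, 11.24 and 11.43. Control 3 was its lowest array by a wide gap, and the difference of 0.28 (SE 0.22) was 0.05 without it.

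Further down, the biotin-dependent carboxylases were close to 0. The subunits of methylcrotonyl-CoA carboxylase, Mccc1 and Mccc2, differed by 0.04 (SE 0.11) and −0.02 (SE 0.12), and those of propionyl-CoA carboxylase, Pcca and Pccb, by −0.03 (SE 0.15) and 0.03 (SE 0.16). The methylmalonyl-CoA mutase Mut, which passes propionate carbon to the citric acid cycle, differed by 0.05 (SE 0.11). Of the 10 branched-chain genes 6 had a difference above 0, with a median of 0.03, and 0 passed. Control 3 was the lowest of the 8 arrays in 5 of them and hydrogen water 2 in the other 5. Of 12 measured further genes of the route, 9 had a difference above 0 and 0 passed.

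The sulfur pathway makes S-adenosylmethionine, uses it, and passes homocysteine either back to methionine or on to cysteine. Mat1a, the S-adenosylmethionine synthetase of adult liver, stood at 14.05, 14.03, 13.90 and 14.04 on controls and at 14.00, 14.01, 14.15 and 14.16 with hydrogen water. Its signals were tight, with a difference of 0.08 (SE 0.10). Gnmt, the glycine N-methyltransferase that consumes excess S-adenosylmethionine, was at 13.76, 13.52, 13.52 and 13.66 on controls and 13.55, 13.47, 13.47 and 13.34 with hydrogen water. It leaned to the lower side, with hydrogen water 1 above 2 of the controls, by −0.16 (SE 0.10; limma adjusted p = 0.789). Cth, which forms cysteine, was at 13.13, 13.19, 12.38 and 13.14 on controls and 12.94, 12.87, 13.06 and 13.16 with hydrogen water. Control 3 stood apart from every other array, and the difference was 0.05 (SE 0.17). Cbs, which joins homocysteine to serine, differed by 0.06 (SE 0.13). Of the 5 measured sulfur genes 3 had a difference above 0 and 0 passed.

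Bhmt, which returns homocysteine to methionine with betaine, and Got2 were read by more than 1 probe set. The one used for Bhmt (transcript cluster 10511886) gave a difference of −0.03 and a second gave −0.04. The third, with means of 7.66 in controls and 7.51 with hydrogen water, gave −0.15. For the first and second probe sets 0 of the 6 probe sets with neighbouring identifiers named a gene of the chromosome that carries Bhmt, whereas for the third it was 6 of 6. For Got2, the probe set used had 0 of 6 such neighbours and gave 0.04, and a second, with 5 of 5, gave 0.06. The origin of the signals of Bhmt and Got2, which may be shared with near-identical copies elsewhere in the genome, is therefore uncertain.

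Histidine breakdown leads to glutamate in 4 steps, and its genes spread together over the arrays. Hal, the histidine ammonia-lyase of periportal hepatocytes, had signals of 12.76, 12.38, 11.85 and 12.39 on controls and 12.22, 12.14, 12.64 and 12.91 with hydrogen water. Uroc1, the urocanase, stood at 10.68, 10.37, 10.29 and 10.62 on controls and at 10.56, 10.12, 10.85 and 10.99 with hydrogen water. In both genes hydrogen water 3 and 4 were high and hydrogen water 2 low, and the groups overlapped. The differences were 0.13 (SE 0.20) for Hal, 0.14 (SE 0.18) for Uroc1, 0.09 (SE 0.20) for the imidazolonepropionase Amdhd1 and 0.00 (SE 0.16) for Ftcd, which transfers the formimino group to folate. The median of the route around each gene's mean was −0.41 on control 3 and 0.28 on control 1, and −0.34 on hydrogen water 2 and 0.46 on hydrogen water 4. The distance between replicates thus exceeded that between the groups, whose median difference was 0.11. That median was −0.06 without control 3 and −0.04 without hydrogen water 4.

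**Figure D4:**
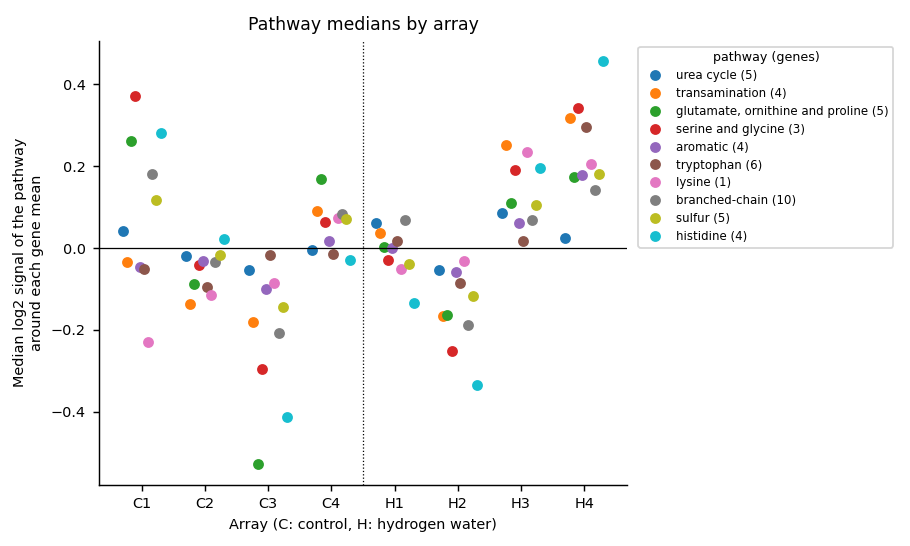
Median over a pathway's genes of the log2 signal around each gene's mean (y axis) on each array (x axis; C for control, H for hydrogen water), coloured by pathway. The pathways move together on control 3 and hydrogen water 2, mostly below 0, and on hydrogen water 4, above 0, while the urea cycle stays close to 0 on all 8 arrays.

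The spread between arrays differed from gene to gene. The pooled within-group SD had a median of 0.19 over the 47 genes and of 0.18 over all genes. It ranged from 0.07 for Hpd to 0.42 for Amt. In 9 of the 47 genes it lay above the 90th percentile of all genes, among them Amt, Gpt, Ivd, Acmsd, Prodh2 and the histidine genes Hal, Uroc1 and Amdhd1. In 4 it lay below the 10th: Hpd, Arg1, Tdo2 and Mat1a. The 24 mitochondrial enzymes measured had a median difference of 0.05 and the 23 cytosolic ones of 0.07. Of the 8 classical targets of glucagon and glucocorticoids on the list, 6 were measured, 4 of them with a difference above 0, and their median difference was 0.04.

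Other genes of these pathways were taken from a list of 64, of which 61 were measured. Of these 43 had a difference above 0, with a median of 0.07, where 48.7% of all genes lay above 0. As for the 47 genes, their median around each gene's mean was lowest on control 3 (−0.19) and highest on hydrogen water 4 (0.20). Of the 61, 0 passed, and 5 (8.20%) had an unadjusted limma p under 0.05, against 7.17% of all genes. Beside both carriers named above, these were Tst, the mitochondrial thiosulfate sulfurtransferase, Glul, the glutamine synthetase that traps ammonia around the central vein, and Slc43a1, a transporter of large neutral amino acids. Glul stood at 12.47, 12.34, 11.86 and 12.06 on controls and at 12.43, 12.41, 12.61 and 12.62 with hydrogen water. Controls 3 and 4 were its low arrays, and the difference was 0.33 (SE 0.14, limma adjusted p = 0.687). Glul was read by 2 probe sets, and these values are from the one with the higher mean signal (transcript cluster 10374453). The neighbouring identifiers examined for Bhmt and Got2 were not examined for Glul, so the origin of its signal was not tested. Tst differed by 0.35 (SE 0.14) and Slc43a1 by 0.59 (SE 0.20). Of 10 regulators, including the glucagon receptor Gcgr (0.14, SE 0.11), the glucocorticoid receptor Nr3c1 (−0.12, SE 0.11), Klf15 (0.05, SE 0.15) and Foxo1 (0.36, SE 0.18), 0 passed and 8 had a difference above 0.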

How the data were processed

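RNA of 8 fasted livers, extracted with an RNeasy Mini kit and amplified with the Ambion WT Expression kit per the labels' protocols, was read on 8 arrays. The authors deposited a log2 signal for every probe set. The submitters' processing notes name Expression Console; version, background correction, normalization and genome build: not given in the sources used here. The log2 scale was read from the values. Array medians over genes lay between 5.84 and 5.90, and correlations between arrays between 0.988 and 0.995. The number of arrays limits the precision; no depth applies.

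Of 35556 probe sets, 21789 had 1 gene symbol, 1621 several and 12146 none here. Symbols from the platform annotation were updated through RefSeq identifiers (GRCm38.p6, names only); 19856 of 19938 genes matched. Groups came from the sample titles; the treatment note, identical for all samples, assigned no group, but the starting age comes from it. Fasting and the weeks of drinking also stand in the sample descriptions. All genes were tested with limma 3.58.1 (R 4.3.3; lmFit and eBayes, 2 groups, no covariate, two-sided, 6 residual and 5.88 prior degrees of freedom), with Benjamini-Hochberg adjustment over 19938 genes at a threshold of 0.05. The test was tested on simulated data. Medians over genes are descriptions without a test.

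The genes, the pathways and the further lists were chosen with earlier results of these data known. Values per array are printed for all measured urea cycle genes and, in each other pathway, for the 2 genes with the smallest unadjusted p and the one with the largest pooled SD. Genes outside the list are named where their unadjusted p was under 0.05. Slc25a13, Slc7a2, Arg2, Gstz1, Qdpr, Pcbd1, Gcgr, Nr3c1, Klf15, Foxo1 and the marker Tbx3 were named after their values were seen. Alternatives were quantile normalization, median centring, a filter on dim genes, the mean of probe sets, probe sets with several symbols, a trended and robust variance, weighting of arrays, a block for the replicate number, and each array left out; leaving out control 3 and hydrogen water 4 together was added after seeing the data. Plots were drawn with matplotlib 3.10.9.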

Additional observations from a re-analysis of the deposited data

Results flagged for a closer look

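Within groups of 4 arrays, 1 array lay far from the others in 9 of 94 gene and group combinations, by Dixon's ratio of the gap to the whole range. The nominal rate of this ratio is about 1 in 20. The share over all genes was not computed, and the 94 combinations share the same 8 arrays. The count is therefore a description and no test of the list. Control 3 was the distant array in 5 of the 9, always on the low side. Its signal was 9.93 for Bckdha (ratio 0.834; other controls 10.55 to 10.67) and 7.22 for Bckdk (ratio 0.856; others 7.82 to 7.92), the dehydrogenase subunit and the kinase of branched-chain oxidation. It was 10.02 for Pccb (ratio 0.922; others 10.67 to 10.73), 13.90 for Mat1a (ratio 0.907; others 14.03 to 14.05) and 12.38 for Cth (ratio 0.925; others 13.13 to 13.19).

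Hydrogen water 4 was high for Gldc, at 11.50 against 10.82 to 10.88 on the other hydrogen water arrays (ratio 0.920), and for Acmsd, at 10.15 against 9.41 to 9.50 (ratio 0.882). Hydrogen water 2 was low for Pccb, at 10.37 against 10.62 to 10.63 (ratio 0.936). Control 2 was low for Afmid, at 10.86 against 11.40 to 11.50 (ratio 0.849).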

How the results depend on the processing

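In every alternative run, 0 of the enzymes of the list and 0 of the other genes of the pathways passed the adjusted threshold. Over all genes limma called 0 in each alternative with 8 arrays, between 0 and 1 with each array left out in turn (Sucnr1 without control 2, Aqp8 without control 3) and 3 without both control 3 and hydrogen water 4 (Aqp8, Mir297b and Usp17ld); none of these is an enzyme of the list. The number of enzymes with a difference above 0 was 23 to 42 with each array left out, 23 without control 3, 25 without hydrogen water 4, and 14 without both arrays, against 30 to 37 in the alternatives that keep the 47 genes and 8 arrays. The median difference of the list lay between −0.02 and 0.13 with each array left out. The median difference of the urea cycle genes was −0.018 without control 3, between −0.018 and 0.097 with each array left out, and −0.013 without both arrays. That of the sulfur genes lay between −0.05 and 0.10 with each array left out and was −0.13 without both arrays. With each array left out, the medians also changed sign for the glutamate, ornithine and proline genes (−0.10 to 0.19), serine and glycine (−0.06 to 0.21), histidine (−0.06 to 0.22) and branched-chain genes (−0.06 to 0.10), each lowest without control 3; those of the other 4 pathways did not. The cause was not tested. With each array left out, between 0 and 4 enzymes had an unadjusted p under 0.05, and 0 without control 1, hydrogen water 3 or hydrogen water 4. Otc had an unadjusted p over 0.05 also with quantile normalization, the filter on dim genes, array weights and the replicate block. Array weights turned the sign of 10 of the 47 differences, the largest of them 0.10 in size.

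The replicate numbers did not pair the arrays: deviations from the group means of same-numbered arrays correlated by −0.06, 0.06, −0.03 and −0.16, and 0 of 4 controls correlated best with their own number. With the replicate number as a block 0 genes were called, 36 enzymes had a difference above 0, and their median difference was 0.06. With probe sets of several symbols allowed, 49 of the genes were measured and 38 had a difference above 0.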
